A study of Homo sapiens with 12 samples.

Results

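The account below concerns how the effect of the E2A-/- genotype on gene expression differed between day 3 and day 7 of the differentiation of human embryonic stem cells (line H7, an established line) into cardiomyocytes. The genotype effect of a gene at a given day was the mean log2(FPKM + 1) of the libraries labelled E2A-/- minus that of the wild type libraries, and the quantity tested was the day 7 effect minus the day 3 effect. FPKM is a fragment count scaled by transcript length and by the library's mapped total. The comparison used 8 of the 12 libraries, 2 for each genotype at each day, and 16295 of the 17096 listed genes. The day 3 cells carried the label cardiac mesoderm and the day 7 cells the label cardiomyocytes. Both genotypes were H7 cells on the same course, and the sources used here give neither the position of the edit, nor the number of clones, nor whether replicates came from separate cultures. The p-values therefore measure the spread between these libraries, which may be technical.

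E2A is the older name of TCF3, which encodes the E proteins E12 and E47. E proteins are basic helix-loop-helix transcription factors that bind the E-box motif as dimers, and ID proteins block them by forming dimers that cannot bind DNA. Between the 2 days, wild type cells in such a protocol pass from a mesoderm progenitor to a beating muscle cell, so a gene's genotype effect can change because either genotype changed its level. The genes described in most detail below are therefore given with the level in all 4 groups. A positive difference of effects means that the gene stood higher, relative to wild type, at day 7 than at day 3; an effect is said to have risen or fallen only where the difference passed an adjusted p of 0.05 in limma, adjusted over all 16295 genes.

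TCF3 mRNA was present at high level in every library labelled E2A-/-. TCF3 (chromosome 19, 1609290 to 1652605) stood at 179.5 and 149 FPKM in wild type and 146 and 148 FPKM in the libraries labelled E2A-/- at day 3, and at 135 and 138 FPKM against 179.9 and 172 FPKM at day 7. At day 3 the effect of -0.15 was not called, and the nearest libraries stood at 149 FPKM in wild type and 148 FPKM under the label. At day 7 the labelled libraries were higher without overlap. The difference of effects was 0.52 (SE 0.14, adjusted p = 0.0314). That difference missed the threshold in the fit of all 12 libraries, after median-ratio rescaling, without the trend and when any of 6 of the 8 libraries was left out. The mRNA level does not check the edit, so a direction stated below is that of the libraries as labelled. Replicates correlated at 0.982 to 0.990 over log2(FPKM + 1). The 8 libraries summed to between 605392 and 734958 FPKM; no read counts were given, so depth is unknown. Mitochondrially encoded genes held 15.7% and 16.9% of the summed FPKM in wild type and 17.4% and 18.8% in the libraries labelled E2A-/- at day 3. At day 7 they held 8.14% and 8.55% in wild type and 18.5% and 20.2% under the E2A-/- label. The 8 markers of cardiac mesoderm summed to 1478 and 1480.3 FPKM in wild type and 512 and 470.3 FPKM under the E2A-/- label at day 3. The 8 cardiomyocyte markers summed to 8133 and 8203 FPKM in wild type and 1439 and 1293 FPKM under the E2A-/- label at day 7, against 10.5 to 23.8 FPKM at day 3. In such bulk samples, fewer cells of a type and less RNA per cell cannot be told apart.

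The genotype effect changed between the days for 3998 of the 16295 genes (24.5%). It rose for 2273 genes (13.9%) and fell for 1725 (10.6%), and 2111 of the 3998 differed by 1 or more on the log2 scale. The median difference over all genes was 0.09. Taken alone, the day 3 effect passed for 4541 genes (27.9%) and the day 7 effect for 7578 (46.5%). Without wild type replicate 1 or 2 of day 3 the count was 2517 or 2608, and without wild type replicate 1 or 2 of day 7 it was 2410 or 2370. In the median-ratio rescaling 46.0% of 4107 calls were rises, against 56.9% in the values as deposited; that scaling moved the median difference of all genes to -0.01. No call of the deposited values had the other sign in any of the 16 alternative fits.

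These calls were kept apart by the level of the gene. A gene counted as expressed at both days when both libraries of at least 1 genotype reached 1 FPKM at each day. This held for 13948 genes, of which 3633 were called (26.0%), 2120 as rises (15.2%) and 1513 as falls (10.8%). A gene near 0 at day 3 had all 4 day 3 libraries under 1 FPKM and both libraries of a genotype at 1 FPKM or more at day 7. Of 568 such genes 184 were called (32.4%), 52 as rises (9.15%) and 132 as falls (23.2%). Of 194 genes near 0 at day 7 in the same sense, 46 were called (23.7%), 38 as rises (19.6%) and 8 as falls (4.12%). In the last 2 groups one day's effect is held near 0 by the low level itself, so the difference restates the other day's effect. A further 1585 genes fell in none of these groups, and 135 of them were called (8.52%).

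Among genes expressed at both days, most calls joined a called effect at one day to none called at the other. An effect not called is not shown to be absent. The shares of each set are given among the 3633 calls, then among all 13948 genes expressed at both days. Each set is formed from the same effects whose difference was called, so unlike shares are built in and are no separate result. The largest set, 1140 genes (31.4% against 17.6%), had no called effect at day 3 and stood higher under the E2A-/- label at day 7. Another 781 (21.5% against 12.4%) had no called effect at day 3 and stood lower at day 7. The effect was called at day 3 alone in 461 lower genes (12.7% against 6.97%) and 258 higher ones (7.1% against 4.71%). A called effect turned over from lower to higher in 257 genes (7.07% against 1.84%) and from higher to lower in 239 (6.58% against 1.71%). Every gene with such a turn had a called difference, which 2 called effects of opposite sign nearly ensure. Its share among the calls is therefore larger by construction. In the remaining sets, 144 genes were higher (3.96% against 6.21%) and 234 lower (6.44% against 9.63%) at both days. Another 119 passed at neither day alone (3.28% against 38.9%). Of the 2120 rises, wild type moved more between the days than the labelled cells in 1470 (69.3%), against 60.6% of all genes expressed at both days. The median day 7 minus day 3 change of those 2120 genes was -0.76 in wild type and 0.25 under the E2A-/- label. Across the 13948 genes the effects of the 2 days, which come from separate libraries, correlated at 0.400, a description over genes that are not independent.

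**Figure D1:**
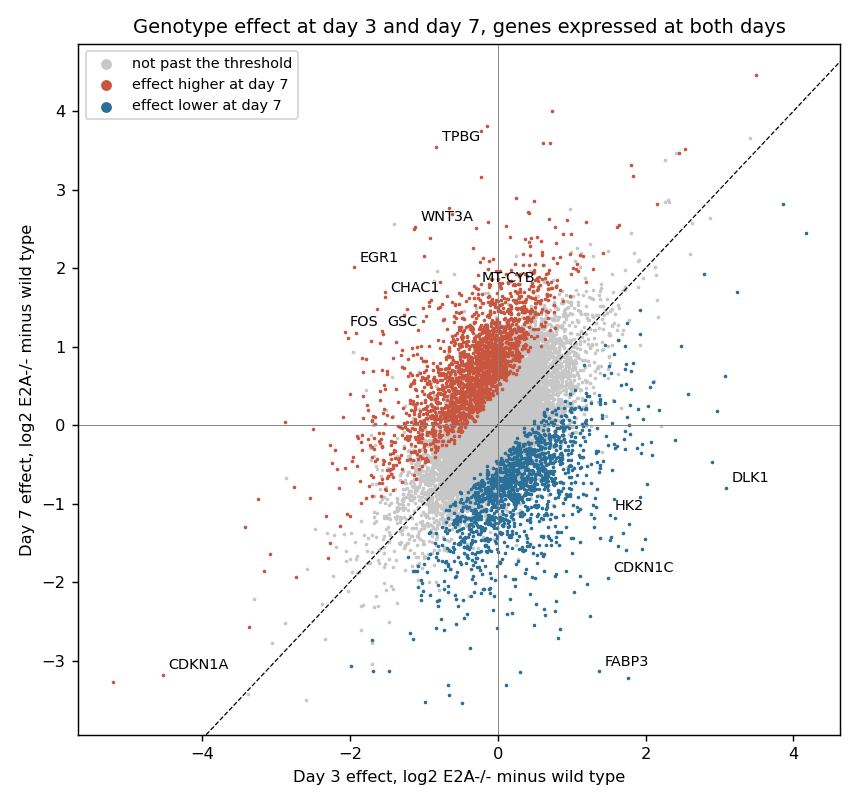
Each point is 1 gene expressed at both days (13915 genes drawn, without date-like or repeated symbols), with its day 3 effect on the x axis and its day 7 effect on the y axis, both as log2(FPKM + 1) under the E2A-/- label minus wild type. Red points have an effect that rose and blue points one that fell at an adjusted p of 0.05, grey points did not pass, and the dashed line marks equal effects; EGR1, FOS, CHAC1 and GSC lie at the upper left and HK2, CDKN1C, DLK1 and FABP3 at the lower right.

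The largest rises among genes expressed at both days were 8 genes whose day 3 effects were all below 0 and whose day 7 effects were all above 0. Ranking by the difference favours such opposite signs, and a sign below 0 is not a called effect. TPBG (chromosome 6, 82363206 to 82370828), a trophoblast surface glycoprotein, stood at 21.6 and 22.8 FPKM in wild type and 12.5 and 11.6 FPKM in the libraries labelled E2A-/- at day 3, then at 14.8 and 15.3 against 179 and 195 FPKM at day 7 (difference of effects 4.38, SE 0.14, adjusted p = 2.72e-05). The labelled libraries lay below both wild type libraries at day 3 and far above them at day 7. SP8, a zinc finger factor of limb and forebrain, stood at 21.7 and 23.2 against 18.01 and 20.2 FPKM at day 3, and at day 7 stood at 1.89 and 1.62 FPKM in wild type against 38.8 and 33.4 FPKM (difference of effects 3.98, SE 0.18, adjusted p = 5.18e-05). BOC, a hedgehog co-receptor, went from 8.03 and 7.94 against 8.04 and 5.51 FPKM to 12.6 and 15.05 FPKM in wild type and 128 and 135 FPKM under the label (difference of effects 3.39, SE 0.24, adjusted p = 0.00022). CDH11, a mesenchymal cadherin, stood at 143 and 131 FPKM against 65.8 and 58.6 FPKM at day 3 and 21.3 and 17.1 FPKM against 129.5 and 97.9 FPKM at day 7 (difference of effects 3.63, SE 0.22, adjusted p = 0.000137). For SP8 and CDH11 the wild type level was lower at day 7 than at day 3 and the labelled level was higher. VGF, a neuropeptide precursor, and DLGAP1-AS2, an antisense transcript, differed by 3.95 and 3.43. DLGAP1-AS2 reads may include its sense partner where counting ignored strand.

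Among the 8 largest falls in the same group, FABP3, DLK1, FAM162A and INSIG2 joined a called positive effect at day 3 to a called negative one at day 7. FABP3 (chromosome 1, 31365625 to 31376850), the heart fatty acid-binding protein, stood at 2.91 and 3.55 FPKM in wild type and 11.2 and 8.79 FPKM under the E2A-/- label at day 3, and at 46.8 and 59.6 against 4.96 and 5.29 FPKM at day 7 (difference of effects -4.51, SE 0.25, adjusted p = 8.75e-05). The genotypes did not overlap at either day and their order was exchanged. DLK1, an imprinted NOTCH-like ligand, stood at 8.73 and 8.84 against 74.2 and 91.7 FPKM at day 3 and 435 and 466 against 261 and 257 FPKM at day 7 (difference of effects -3.89, SE 0.15, adjusted p = 3.82e-05). FAM162A, a hypoxia-inducible mitochondrial protein, stood at 30.3 and 29.5 against 67.6 and 78.1 FPKM and then 91.3 and 107 against 15.4 and 19.9 FPKM (difference of effects -3.69, SE 0.20, adjusted p = 8.75e-05). EEF1A2, the muscle and neuron form of a translation elongation factor, had no called effect at day 3 (10.7 and 8.97 against 11.4 and 13.1 FPKM) and stood at 243 and 257 against 27.05 and 27.7 FPKM at day 7 (difference of effects -3.44, SE 0.16, adjusted p = 5.45e-05). The other 3 falls named by size were INSIG2 (-3.53), KCNIP2 (-3.53) and SERPINI1 (-3.44). GPR157 had the largest difference of all, -4.98, but its replicates lay far apart, with 38.2 and 1.92 FPKM under the label at day 3 and 15.1 and 55.8 FPKM in wild type at day 7 (SE 1.52, adjusted p = 0.0485). It missed the threshold without a filter, without the trend, with the replicate block and when any of 6 of the 8 libraries was left out.

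More genes of glycolysis and of the hypoxia response stood higher than lower under the E2A-/- label at day 3, and nearly all stood lower at day 7. Glycolysis splits glucose to pyruvate, and most of its genes are also induced by the hypoxia-inducible factors, which bind a short core, ACGTG in its most common form and GCGTG as a variant. Of 22 genes tested, the effect fell for 19 and rose for none, against 10.6% falls and 13.9% rises over all genes. All 22 differences were below 0, with a median of -1.41 against 0.09 over all genes. At day 3, 9 of the 22 stood higher under the E2A-/- label and 1 lower, against 11.3% of all genes higher. At day 7 none stood higher and 21 stood lower, against 22.3% of all genes lower. The falls remained 18 to 20 in number without any single library, and 19 or 20 in both rescalings.

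HK2, BNIP3 and PFKFB4 had the smallest adjusted p of the list, and their promoters are shown for the hypoxia core that the list's name implies. Each line gives the 250 bases before the RefSeq gene start (GRCh38.p14), on the strand of the gene, with the core ACGTG, its variant form GCGTG and their reverse complements in capitals. HK2 lies on the plus strand (chr2:74833877-74834126), and BNIP3 (chr10:131981924-131982173) and PFKFB4 (chr3:48556804-48557053) lie on the minus strand.
HK2: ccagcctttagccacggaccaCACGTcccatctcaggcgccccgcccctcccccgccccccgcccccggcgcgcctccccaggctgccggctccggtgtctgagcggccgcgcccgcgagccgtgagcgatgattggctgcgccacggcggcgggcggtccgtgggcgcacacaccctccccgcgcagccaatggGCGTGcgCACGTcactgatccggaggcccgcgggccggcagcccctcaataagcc
BNIP3: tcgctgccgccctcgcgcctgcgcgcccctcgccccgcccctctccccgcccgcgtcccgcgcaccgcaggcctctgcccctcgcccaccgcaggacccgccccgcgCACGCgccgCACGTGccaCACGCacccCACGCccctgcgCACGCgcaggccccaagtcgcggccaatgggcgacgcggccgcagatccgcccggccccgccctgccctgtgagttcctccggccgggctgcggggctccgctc
PFKFB4: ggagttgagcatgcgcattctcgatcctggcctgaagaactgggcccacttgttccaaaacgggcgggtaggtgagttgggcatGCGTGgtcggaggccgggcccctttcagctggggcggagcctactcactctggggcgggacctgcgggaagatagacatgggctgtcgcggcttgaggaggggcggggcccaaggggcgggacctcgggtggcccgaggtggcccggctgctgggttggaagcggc
These windows held 3, 6 and 1 matches, where the CACGTG of BNIP3 counts once on each strand. In GENCODE the HK2 and BNIP3 genes begin within their windows, at 74833981 and 131982013. The PFKFB4 window lies inside its GENCODE gene (48517684 to 48562015). Of the 18 promoters found among the 19 genes that fell, 13 held at least 1 match (72.2%), against 57.1% of 10910 promoters of genes tested and 43.1% of all 27305 in the table. The E-box CANNTG, which contains a whole core only where it reads CACGTG, was in 10 of the 18 (55.6%) and in 53.2% of the promoters of genes tested. The form CACGTG was in 4 of the 18 (22.2%) and in 8.82%. Such matches are letters in a window and depend on base composition; no binding was measured.

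HK2 (chromosome 2, 74833981 to 74893359), the inducible hexokinase that traps glucose in the cell, stood at 35.5 and 37.9 FPKM in wild type and 111 and 103 FPKM in the libraries labelled E2A-/- at day 3. By day 7 the values were 53.95 and 51.8 FPKM in wild type and 24.2 and 22.5 FPKM under the label (difference of effects -2.66, SE 0.13, adjusted p = 5.45e-05). The labelled cells thus had the highest level of the 4 groups at day 3 and the lowest at day 7, with no overlap. PFKFB4, which makes the activator of phosphofructokinase, stood at 23.2 and 19.4 against 78.5 and 71.6 FPKM and then 47.3 and 47.6 against 18.7 and 19.8 FPKM (difference of effects -3.03, SE 0.16, adjusted p = 6.76e-05). BNIP3, a hypoxia-inducible mitophagy receptor, stood at 144 and 142 against 199.9 and 197 FPKM and then 134 and 135 against 41.7 and 43.97 FPKM (difference of effects -2.10, SE 0.10, adjusted p = 5.6e-05). SLC2A3, a high-affinity glucose transporter, had no called effect at day 3 (537 and 533 against 477 and 443 FPKM). By day 7 the values were 2243 and 2122 FPKM in wild type and 627 and 551 FPKM under the label (difference of effects -1.67, SE 0.13, adjusted p = 0.000299). Among the members chosen after their values were seen, the abundant enzymes ALDOA, ENO1 and LDHA differed by -1.43, -1.34 and -1.49. PFKL, PKM and VEGFA did not pass, with differences of -0.35, -0.18 and -0.24.

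**Figure D2:**
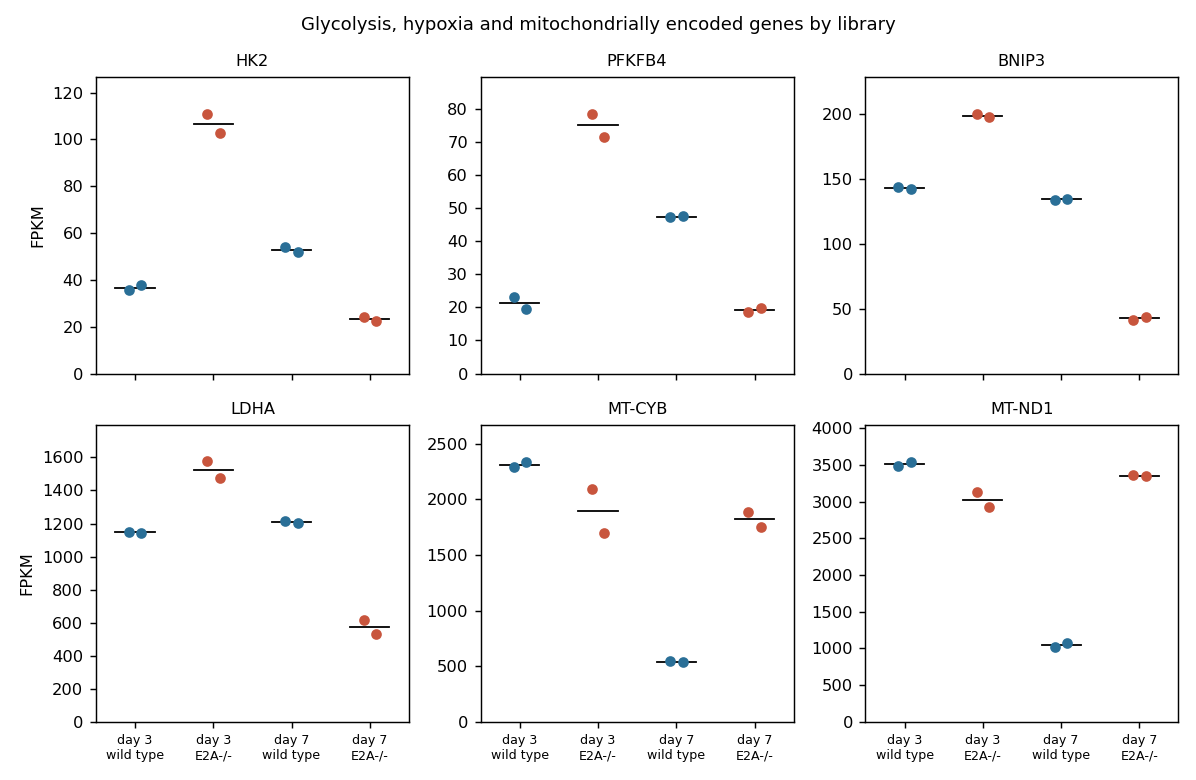
Level in FPKM (y axis, from 0) of 6 genes in each library of the 4 groups (x axis); points are libraries, blue for wild type and red for the E2A-/- label, and lines are means of 2. For HK2, PFKFB4, BNIP3 and LDHA the labelled libraries lie above wild type at day 3 and below it at day 7, and for MT-CYB and MT-ND1 the day 7 wild type libraries lie below all others.

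Transcripts of the mitochondrial genome, which encode the membrane core of the respiratory chain, changed the other way. The effect rose for all 13 mitochondrially encoded protein genes, against 13.9% of all genes. The differences ran from 0.94 (MT-ND4) to 2.04 (MT-CYB), with a median of 1.44. At day 3, 4 of the 13 stood higher and 1 lower under the E2A-/- label (5 in all, 2 without either wild type replicate of day 3 and 3 without either of day 7), and at day 7 all 13 stood higher. MT-CYB, the cytochrome b of complex III, stood at 2288 and 2333 FPKM in wild type and 2089 and 1701 FPKM under the label at day 3. By day 7 the values were 543 and 537 FPKM in wild type and 1886 and 1752 FPKM under the label (difference of effects 2.04, SE 0.15, adjusted p = 0.000285). MT-ND1, of complex I, stood at 3488 and 3547 against 3126 and 2928 FPKM and then 1020.4 and 1077 against 3365 and 3346 FPKM (difference of effects 1.89, SE 0.12, adjusted p = 0.000137). The median day 7 minus day 3 change of the 13 genes was -1.42 in wild type and 0.05 under the label, so the day 7 wild type libraries were the pair that stood apart. Leaving out any 1 library kept 12 or 13 of the 13 rises. Because FPKM shares a total, the values were also rescaled to the sum of nuclear genes. All 13 rose there too, with a median of 1.46, and the median effect over all genes moved from -0.01 to 0.12 at day 3 and from 0.06 to 0.22 at day 7.

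The nuclear genes of the respiratory chain did not share that direction. Of 20 tested, the effect fell for 11 and rose for none (median -0.69), and the falls numbered 5 to 10 without any single library. The shares over all genes were 10.6% falls and 13.9% rises. ATP5G1, a subunit of the ring of ATP synthase, stood at 26.7 and 31.4 FPKM in wild type and 25.9 and 27.99 FPKM under the E2A-/- label at day 3. It stood at 76.7 and 92.3 against 20.7 and 17.9 FPKM at day 7 (difference of effects -1.97, SE 0.19, adjusted p = 0.000741). ATP5A1, SDHA and COX6C differed by -1.10, -0.90 and -1.25. For these 4 genes the wild type level was higher at day 7 than at day 3, by 0.58 (COX6C) to 1.51 (ATP5G1) on the log2 scale, and the day 7 minus day 3 change under the label lay between -0.66 (COX6C) and 0.32 (SDHA). Cytoplasmic ribosomal proteins gave no call: 0 of 24 genes passed in limma, 2 had an unadjusted p under 0.05, and the median difference was 0.07. The level of 10 of the 24 was lower under the label at day 3 (16.6% of all genes) and that of 11 at day 7 (22.3%). Those counts moved to 4 and 4 after nuclear-sum rescaling and to 7 and 3 without the trend. Leaving out 1 library gave 2 to 10 at day 3 (2 without wild type replicate 1 of day 3, 3 without its replicate 2 and 4 without E2A-/- replicate 1 of day 3) and 1 to 11 at day 7 (1 and 4 without wild type replicate 2 and 1 of day 7, and 5 without either E2A-/- replicate of day 7). In the median-ratio rescaling 1 of the 24 was called. In fatty acid oxidation, which heart muscle takes up as it matures, the effect fell for 5 of 12 genes and rose for 1, against 10.6% falls and 13.9% rises over all genes; without wild type replicate 2 of day 7 the falls were 3. HADHA and HADHB, the 2 chains of the trifunctional protein, differed by -0.74 and -0.78. CPT1B, the muscle carnitine transferase, differed by 1.63.

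p53 is a transcription factor that answers DNA damage and other stress by inducing genes of cell cycle arrest, repair and death. Of 21 of its known targets tested, the effect rose for 13 and fell for none, against 13.9% rises and 10.6% falls over all genes. The median difference was 0.93. At day 3, 20 of the 21 stood lower under the E2A-/- label (median effect -1.47), against 16.6% of all genes. At day 7, 11 stood lower and 1 higher (median -0.48), against 22.3% and 24.2% of all genes. The median change between the days was -1.13 in wild type and -0.07 under the label. The rises numbered 10 to 13 without any single library.

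BTG2, an antiproliferative factor, stood at 57.8 and 55.98 FPKM in wild type and 12.3 and 10.3 FPKM in the libraries labelled E2A-/- at day 3, and at 26.7 and 24.6 against 18.5 and 17.7 FPKM at day 7 (difference of effects 1.76, SE 0.16, adjusted p = 0.000536). AEN, an apoptotic nuclease, stood at 39.5 and 44.5 against 7.96 and 8.79 FPKM and then 10.1 and 12.4 against 9.34 and 8.37 FPKM (difference of effects 1.88, SE 0.20, adjusted p = 0.00104). DDB2, a sensor of ultraviolet damage, stood at 19.6 and 20.4 against 5.14 and 6.27 FPKM and then 10.2 and 11.3 against 11.7 and 11.4 FPKM (difference of effects 1.75, SE 0.19, adjusted p = 0.00106). For these 3 genes the labelled libraries lay well below wild type at day 3; at day 7 BTG2 and AEN still lay below wild type without overlap, though the day 7 effect of AEN was not called, and DDB2 lay just above. TNFRSF10B, a death receptor, had no called effect at day 7 (23.9 and 23.2 against 22.7 and 23.1 FPKM).

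CDKN1A (chromosome 6, 36676460 to 36687339), the p21 inhibitor of cyclin-dependent kinases, was close to 0 under the label at both days. It stood at 35.98 and 28.3 FPKM in wild type against 0.28 and 0.593 FPKM at day 3, and at 13.2 and 14.2 against 0.776 and 0.487 FPKM at day 7 (difference of effects 1.35, SE 0.27, adjusted p = 0.0111). PHLDA3, a repressor of AKT chosen after its values were seen, went from 51.6 and 46.9 against 0.161 and 0.6 FPKM to 12.2 and 13.7 against 0.465 and 0.426 FPKM. With the labelled libraries under 1 FPKM at both days, the difference of effects for these 2 genes follows the lower wild type level at day 7. At a pseudocount of 0.1 the difference for CDKN1A was 1.70.

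**Figure D3:**
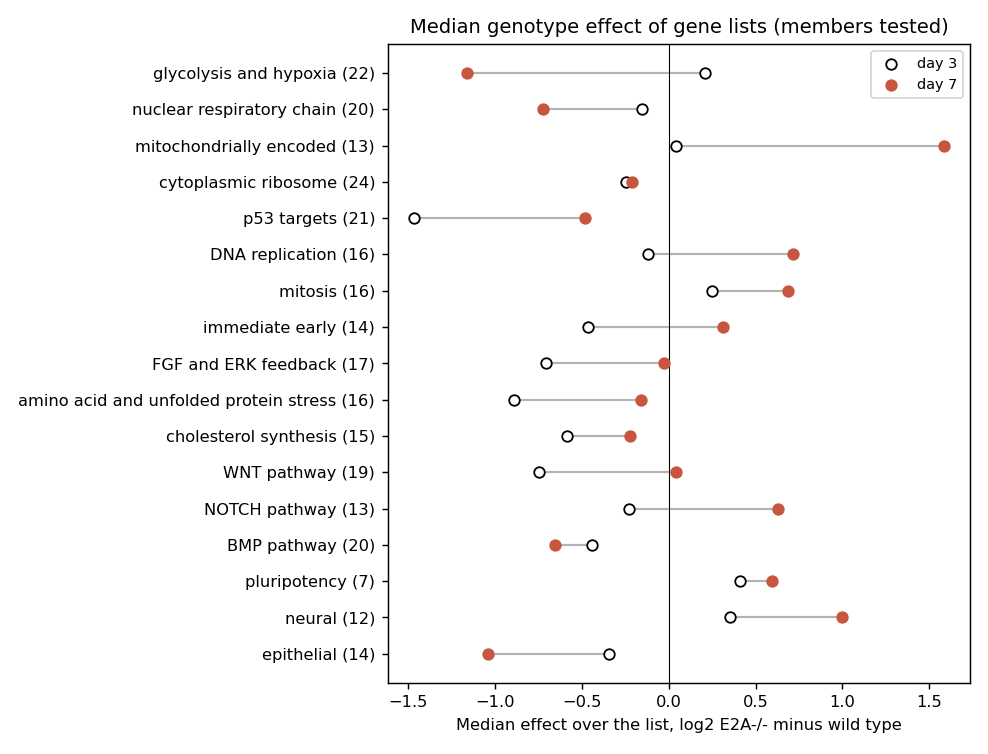
Median genotype effect (x axis, log2(FPKM + 1) under the E2A-/- label minus wild type) of 17 gene lists (y axis, number of members tested in brackets) at day 3 (open) and day 7 (filled). The glycolysis and hypoxia list goes from 0.21 to -1.16, the mitochondrially encoded genes from 0.04 to 1.59 and the p53 targets from -1.47 to -0.48, while the cytoplasmic ribosome stays at -0.25 and -0.21.

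Immediate early genes, which growth factor and stress signals switch on within minutes, included the clearest turns from lower to higher. Of 14 tested, the effect rose for 8 and fell for 1 (median 0.87); 8 stood lower (5 without wild type replicate 1 of day 3) and none higher at day 3, and 7 stood higher and 5 lower at day 7. Over all genes, 13.9% rose and 10.6% fell. At day 3, 16.6% of all genes stood lower and 11.3% higher, and at day 7, 24.2% stood higher and 22.3% lower. EGR1 (chromosome 5, 138465490 to 138469315), a zinc finger factor downstream of ERK, stood at 17.6 and 16.3 FPKM in wild type and 3.49 and 3.80 FPKM under the E2A-/- label at day 3, and at 4.42 and 6.14 against 25.7 and 22.6 FPKM at day 7 (difference of effects 3.96, SE 0.23, adjusted p = 0.00011). FOS, a subunit of AP-1, stood at 9.55 and 11.8 against 1.97 and 1.59 FPKM and then 2.92 and 3.53 against 9.55 and 7.75 FPKM (difference of effects 3.26, SE 0.26, adjusted p = 0.000342). Neither gene's genotypes overlapped at either day, and both changed order. CYR61, a matrix ligand of integrins, was the fall: it stood at 7.11 and 6.36 against 7.24 and 7.93 FPKM and then 103 and 105 against 43.9 and 44.2 FPKM (difference of effects -1.37, SE 0.14, adjusted p = 0.00101). Of 17 FGF and ERK feedback genes, the effect rose for 6 and fell for 1, against 13.9% rises and 10.6% falls over all genes. SPRY4 stood at 126 and 113 against 41.1 and 32.8 FPKM at day 3 and 16 and 15.7 against 16.03 and 12.4 FPKM at day 7 (difference of effects 1.51, SE 0.21, adjusted p = 0.00298). DUSP6, the ERK phosphatase, stood at 71.9 and 72.9 against 23.6 and 29.8 FPKM and then 153 and 161 against 121 and 124 FPKM (difference of effects 1.06, SE 0.16, adjusted p = 0.00367). SPRY2 turned over, with effects of -0.87 at day 3 and 0.58 at day 7.

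In the list of amino acid supply and the unfolded protein response, more effects rose than fell. The shares over all genes were 13.9% rises and 10.6% falls. The effect rose for 8 of 16 and fell for 2, or 1 without the trend, without a filter, in the fit of 12 libraries, after nuclear-sum rescaling and without any one library other than wild type replicate 1 of day 3. PSAT1, of serine synthesis, stood at 125 and 124 FPKM in wild type and 64.2 and 67.8 FPKM under the E2A-/- label at day 3, and at 26.03 and 25.5 against 76.9 and 82.9 FPKM at day 7 (difference of effects 2.50, SE 0.12, adjusted p = 5.18e-05). CHAC1, which degrades glutathione, stood at 27.4 and 28.1 against 10.6 and 7.61 FPKM and then 2.54 and 2.34 against 8.79 and 10.6 FPKM (difference of effects 3.16, SE 0.25, adjusted p = 0.000337). Both genes were lower under the label at day 3 and higher at day 7, with no overlap. DDIT4, an inhibitor of mTORC1 that hypoxia also induces, had the smallest adjusted p of the list and fell. It stood at 123 and 126 against 477 and 477 FPKM at day 3 and 239 and 248 against 131 and 127 FPKM at day 7 (difference of effects -2.84, SE 0.10, adjusted p = 3.17e-05).

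In all, 502 genes had called effects of opposite sign at the 2 days and a called difference. Those with the largest smaller effect, beyond EGR1, FOS and CHAC1, were GSC, GRHL3 and PLEKHA8P1 upward and INSIG2, CDKN1C, FILIP1, BHLHE40, APELA and ANKRD37 downward. CDKN1C, an imprinted inhibitor of cyclin-dependent kinases, stood at 11.3 and 11.7 FPKM in wild type and 32.6 and 35.9 FPKM under the label at day 3, and at 122 and 128 against 30.3 and 33.2 FPKM at day 7 (difference of effects -3.44, SE 0.14, adjusted p = 3.82e-05). The labelled level was nearly the same at both days while the wild type level was higher at day 7. BHLHE40, a hypoxia- and clock-linked repressor, stood at 5.61 and 5.65 against 19.6 and 19.3 FPKM and then 3.14 and 4.28 against 0.372 and 0.898 FPKM (difference of effects -3.16, SE 0.28, adjusted p = 0.000528). INSIG2, which holds back sterol synthesis, stood at 5.82 and 5.61 against 26.2 and 23.8 FPKM and then 21.6 and 14.2 against 4.77 and 5.65 FPKM. APELA, a peptide ligand of the apelin receptor, stood at 0.536 and 0.836 against 4.15 and 3.47 FPKM and then 35.2 and 37.7 against 11.4 and 13.8 FPKM (difference of effects -2.98, SE 0.23, adjusted p = 0.000342). GSC, a factor of the organizer, reached only 2.05 and 1.73 FPKM under the label at day 7, against 0.15 and 0.381 FPKM in wild type. PLEKHA8P1 is a pseudogene that may share reads with its parent gene.

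**Figure D4:**
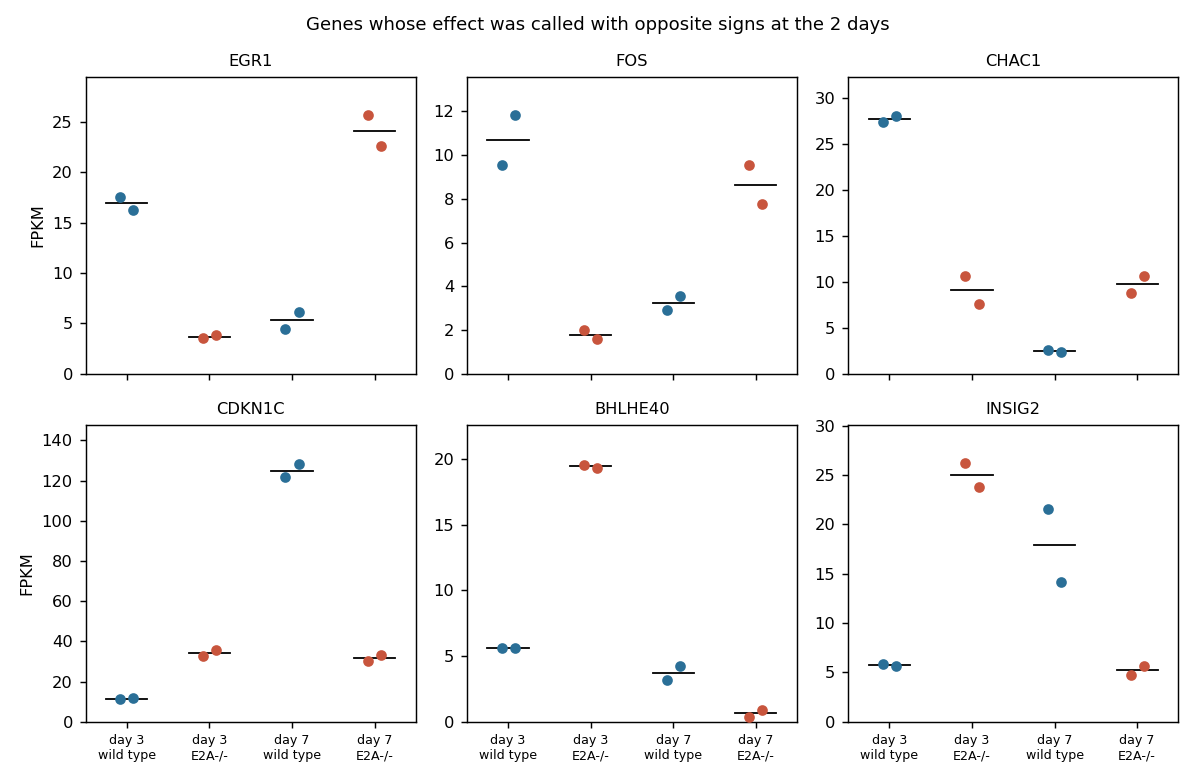
Level in FPKM (y axis, from 0) of 6 genes with called effects of opposite sign, in each library of the 4 groups (x axis); points are libraries, blue for wild type and red for the E2A-/- label, and lines are means of 2. EGR1, FOS and CHAC1 go from lower to higher under the label and CDKN1C, BHLHE40 and INSIG2 from higher to lower.

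In the WNT and NOTCH lists more effects rose than fell. WNT ligands act through Frizzled receptors and beta-catenin; the pathway is needed to form mesoderm, and its inhibition afterwards favours heart muscle. The effect rose for 10 of 19 WNT genes and fell for 3 (median 0.83), against 13.9% rises and 10.6% falls over all genes. At day 3, 14 stood lower and 1 higher (16.6% and 11.3% over all genes). At day 7, 7 stood lower and 8 higher (22.3% and 24.2%). Without wild type replicate 2 of day 3 the 15 day 3 calls were 9, and without wild type replicate 2 of day 7 the 15 day 7 calls were 9. The called ligands were split, WNT3 and WNT3A as rises and WNT5B and WNT11 as falls, and none of the receptors FZD4, FZD7 and FZD8 was called. Among ligands, WNT3A stood at 9.89 and 10.8 FPKM in wild type and 4.20 and 4.24 FPKM under the E2A-/- label at day 3, and at 0.028 and 0.256 against 5.31 and 5.83 FPKM at day 7 (difference of effects 3.65, SE 0.23, adjusted p = 0.000148). WNT5B went the other way, from 6.21 and 7.40 against 4.36 and 3.48 FPKM to 60.2 and 61.1 against 14.2 and 13.7 FPKM (difference of effects -1.38, SE 0.19, adjusted p = 0.00299). Among antagonists, SFRP2 was slightly higher under the label at day 3, without passing the test (124 and 126 against 144 and 153 FPKM) and stood at 10.1 and 10.5 against 84.5 and 81.8 FPKM at day 7 (difference of effects 2.65, SE 0.11, adjusted p = 4.1e-05). NKD1, a feedback target, had effects of -1.10 at day 3 and 0.63 at day 7. The targets AXIN2, LEF1 and TCF7, chosen after their values were seen, differed by 1.24, 1.38 and 1.11.

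NOTCH receptors are activated by ligands on neighbouring cells. The effect rose for 7 of 13 NOTCH genes and fell for 1 (median 1.04), against 13.9% rises and 10.6% falls over all genes. Among ligands, DLL1 stood at 30.4 and 39.5 FPKM in wild type and 17.3 and 18.5 FPKM under the label at day 3, and at 8.40 and 11.7 against 59.7 and 53.01 FPKM at day 7 (difference of effects 3.30, SE 0.25, adjusted p = 0.000304). DLL3, an inhibitory ligand, had no called effect at day 7, when it was far lower in both genotypes, and went from 214 and 230.4 against 43 and 48.2 FPKM to 4.88 and 4.54 against 3.67 and 3.96 FPKM (difference of effects 2.02, SE 0.15, adjusted p = 0.000299). The receptor NOTCH3 had no called effect at day 3 (84.5 and 83 against 81.1 and 80.02 FPKM) and higher under the label at day 7 (51.6 and 53.6 against 106 and 105 FPKM; difference of effects 1.05, SE 0.10, adjusted p = 0.000831). LFNG, which glycosylates NOTCH, went from 53.8 and 52.7 against 13.8 and 15.7 FPKM to 10.4 and 10.6 against 18.1 and 21.5 FPKM (difference of effects 2.63, SE 0.17, adjusted p = 0.000149). HES1, a NOTCH target chosen after its values were seen, was the fall, with effects of 0.74 at day 3 and -0.69 at day 7. In the retinoid list, 5 of 13 rose and 4 fell, against the same 13.9% and 10.6%. CYP26A1, which degrades retinoic acid, stood at 381 and 379.7 against 88.6 and 96.4 FPKM and then 4.58 and 4.76 against 15.1 and 8.32 FPKM (difference of effects 3.14, SE 0.31, adjusted p = 0.000805), and CRABP1, a retinoic acid carrier, differed by 2.58.

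Among cell division genes, too, more effects rose than fell. The effect rose for 10 of 16 DNA replication genes and fell for none (median 0.84), against 13.9% rises and 10.6% falls over all genes. At day 7, 11 of the 16 stood higher and 2 lower, against 24.2% and 22.3% of all genes. MCM7, of the replicative helicase, stood at 105 and 101 FPKM in wild type and 98.6 and 95.99 FPKM under the label at day 3, and at 87.9 and 85.3 against 161 and 164 FPKM at day 7 (difference of effects 0.98, SE 0.10, adjusted p = 0.00102). PCNA, the sliding clamp, stood at 59.1 and 60.5 against 49.6 and 47.5 FPKM and then 23.5 and 19.3 against 40.8 and 43.9 FPKM (difference of effects 1.25, SE 0.16, adjusted p = 0.00194). In the median-ratio rescaling 8 of the 16 rose and 1 fell. Of 16 mitosis genes, 6 rose and 1 fell, against the same 13.9% and 10.6%, with CCNB2 (1.12) and CDC20 (0.99) among the rises. In that rescaling 5 rose and 3 fell.

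The ID genes, BMP targets whose products bind E proteins, changed in different directions. ID3 stood at 135 and 128 FPKM in wild type and 33.8 and 36.8 FPKM under the E2A-/- label at day 3, and at 149 and 171 against 91.7 and 103 FPKM at day 7 (difference of effects 1.16, SE 0.15, adjusted p = 0.0021). ID4 stood at 18.9 and 17.8 against 6.71 and 5.97 FPKM and then 60.8 and 61.6 against 52.7 and 59.3 FPKM (difference of effects 1.27, SE 0.15, adjusted p = 0.00164). Both were lower under the label at day 3; at day 7 ID3 was still lower and the day 7 effect of ID4 was not called. ID2 turned from higher to lower, at 87.95 and 99.1 against 109 and 126 FPKM and then 291 and 289 against 175 and 185 FPKM (difference of effects -1.01, SE 0.14, adjusted p = 0.00271). The differences for ID1 (0.34, adjusted p = 0.0901) and for the other E proteins TCF4 (0.29, adjusted p = 0.547) and TCF12 (0.36, adjusted p = 0.477) did not pass. Of 20 BMP pathway genes 4 rose and 4 fell, against 13.9% and 10.6% over all genes; the ligand BMP4 fell, from 32.5 and 27.2 against 24.7 and 25.7 FPKM to 209 and 211 against 84.8 and 77.8 FPKM (difference of effects -1.13, SE 0.15, adjusted p = 0.00226).

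Genes near 0 at day 3 are described apart, since their difference of effects is in essence the day 7 effect. The 8 largest falls named here included muscle genes. MYH7 (chromosome 14, 23412738 to 23435718), the slow beta myosin heavy chain, was under 0.1 FPKM in all 4 day 3 libraries and stood at 31.1 and 29.3 FPKM in wild type against 0.551 and 0.635 FPKM under the E2A-/- label at day 7 (difference of effects -4.30, SE 0.21, adjusted p = 5.67e-05). HSPB7, a heart small heat shock protein, stood at 135 and 140.3 against 10.7 and 6.64 FPKM at day 7, CKM, muscle creatine kinase, at 49.8 and 54.9 against 2.39 and 2.10 FPKM, and CAPN3, a muscle calpain, at 65.5 and 63.1 against 4.19 and 4.27 FPKM. In each of these the genotypes did not overlap at day 7. The rule for naming by size, which asked for 1 sign in all 16 choices of 1 library per group, made this likely in advance. MASP1 and IGFBP7, both secreted proteins, differed by -4.01 and -3.67. MYH7 and MYH6 are near-identical in parts, so the authors' counting could split reads between them; MYH6 stood at 1921 and 1848 against 555 and 463 FPKM at day 7. Of 16 sarcomere genes in all level groups, 14 fell and none rose (median -2.26), 11 to 14 without any single library. The share of falls over all genes was 10.6%. Of the 16 sarcomere genes, 7 were expressed at both days and all 7 fell. Of these, MYL4, MYL7 and DES were only just above that bound at day 3, with 0.54 to 5.13 FPKM in the 4 libraries. Their day 3 effects too are held small by a low level. TPM1, alpha-tropomyosin, was higher under the label at day 3 (87.1 and 88.4 against 168 and 167 FPKM) and lower at day 7 (2932 and 3128 against 1294 and 1164 FPKM; difference of effects -2.22, SE 0.11, adjusted p = 6.76e-05). TNNC1, cardiac troponin C, stood at 8.76 and 7.34 against 3.80 and 5.88 FPKM and then 536 and 578 against 51.6 and 49.8 FPKM (difference of effects -2.78, SE 0.24, adjusted p = 0.000432). Of 12 cardiac transcription factors 5 fell and none rose, against 10.6% falls over all genes. The falls were 3 at a pseudocount of 0.1 and 3 without wild type replicate 2 of day 3 or either wild type replicate of day 7, and 1 gene rose without E2A-/- replicate 1 of day 3. In the values as deposited the falls were TBX20, TBX2, MEF2C, GATA5 and MYOCD. ISL1 (-0.27) and TBX5 (-0.06) did not pass. GATA4 and HAND1 belong to another list, of cardiac mesoderm genes. Of its 13 genes 4 rose and 4 fell (median 0.28), against 13.9% rises and 10.6% falls over all genes. After median-ratio rescaling 2 of the 13 rose. GATA4 (0.50) did not pass, and HAND1 fell (difference of effects -1.45, SE 0.15, adjusted p = 0.000984). HAND1 went from 51.2 and 52.4 against 20.4 and 24.1 FPKM to 142 and 151 against 23.8 and 21.6 FPKM. NKX2-5 stood just outside the threshold (-0.90, adjusted p = 0.0543); it passed without wild type replicate 1 (-1.17) or E2A-/- replicate 1 (-1.08) of day 3, and had the other sign at a pseudocount of 0.1 (0.53).

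Among the rises of genes near 0 at day 3 that met the level condition for naming, PAX3, NR2F1, WNT7B and GREM1 had the largest differences. PAX3 (chromosome 2, 222199888 to 222298996), a factor of neural crest and muscle precursors, was under 0.5 FPKM in all 4 day 3 libraries and stood at 0.342 and 0.204 FPKM in wild type against 26.6 and 25.04 FPKM under the label at day 7 (difference of effects 4.54, SE 0.26, adjusted p = 0.00011). NR2F1, an orphan nuclear receptor, stood at 0.929 and 0.407 against 12.2 and 10.9 FPKM at day 7 (difference of effects 3.11, SE 0.28, adjusted p = 0.000537), and WNT7B, a WNT ligand, at 0.496 and 0.0392 against 6.86 and 6.82 FPKM (difference of effects 2.70, SE 0.29, adjusted p = 0.00107). GREM1, a secreted BMP antagonist, stood at 1.35 and 1.31 against 10.8 and 10.8 FPKM. For all of PAX3, NR2F1, WNT7B and GREM1 the labelled libraries lay above wild type at day 7 without overlap. The naming rule, with its condition on the sign, made this likely in advance. The 17 neural markers, of which 13 were listed, summed to 519.5 to 535 FPKM in wild type and 654 to 664 FPKM under the label at day 3, and to 322 to 329.6 against 556 to 574.5 FPKM at day 7. At day 3 SOX2, also listed as a pluripotency marker, stood at 46.6 and 42.6 against 209 and 193 FPKM. That gap is larger than the gap between the day 3 sums. The higher day 3 sum under the label thus rests on SOX2, and without SOX2 the labelled sums would be the lower ones. OTX2 went the other way there, at 167 and 159 against 89.6 and 82.1 FPKM, as did TUBB3. Of the members tested, 6 stood higher and 3 lower at day 3 (11.3% and 16.6% of all genes), and 7 and 1 at day 7 (24.2% and 22.3%). Differences over all genes rose for 13.9% and fell for 10.6%. Of 12 tested, 5 rose and 2 fell, or 1 when any of 6 of the 8 libraries was left out. SOX2 had effects of 2.15 at day 3 and 2.82 at day 7 (difference of effects 0.67, SE 0.12, adjusted p = 0.00708), and missed the threshold in the fit of all 12 libraries. FEZF1, a forebrain factor, stood at 1.13 and 0.437 against 28.7 and 32.3 FPKM and then 2.86 and 2.61 against 17.2 and 21.8 FPKM and fell (difference of effects -1.72, SE 0.30, adjusted p = 0.0067). The part of cell mixture in these results was not tested.

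**Figure D5:**
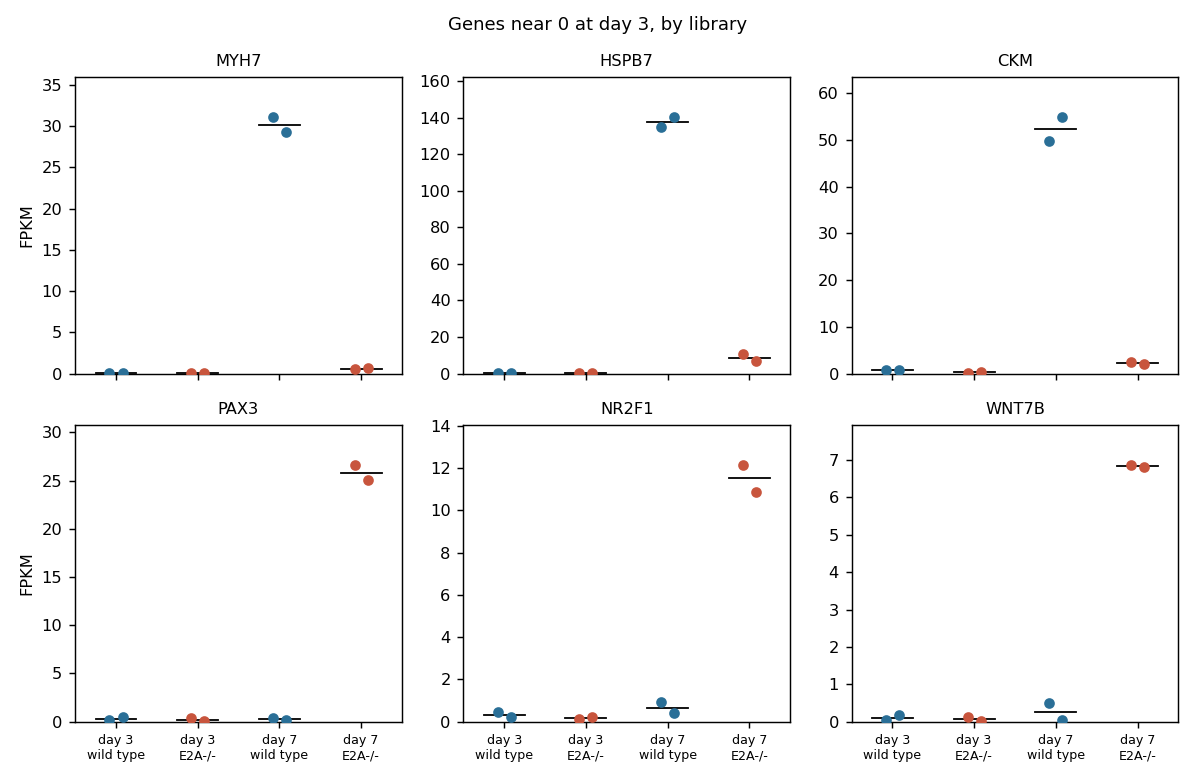
Level in FPKM (y axis, from 0) of 6 genes near 0 at day 3 in each library of the 4 groups (x axis); points are libraries, blue for wild type and red for the E2A-/- label, and lines are means of 2. MYH7, HSPB7 and CKM are high only in wild type at day 7, and PAX3, NR2F1 and WNT7B only under the label at day 7.

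Genes near 0 at day 7 gave mostly rises, in genes that stood lower under the label at day 3. AGAP7P, a pseudogene that may share reads with its family, stood at 10.8 and 12.7 FPKM in wild type and 0.47 and 0.791 FPKM under the label at day 3, and all 4 day 7 libraries were under 0.3 FPKM (difference of effects 3.03, SE 0.25, adjusted p = 0.000381). LZTS1, a leucine zipper protein, stood at 50.4 and 50.1 against 16.9 and 15.5 FPKM at day 3 and under 0.7 FPKM in all 4 libraries at day 7 (difference of effects 1.61, SE 0.19, adjusted p = 0.00164). TNFRSF11B, the decoy receptor osteoprotegerin, stood at 17.4 and 16.4 against 4.24 and 4.53 FPKM at day 3 (difference of effects 1.97, SE 0.24, adjusted p = 0.0017). No fall in this group met the level and sign condition for naming. Of the primitive streak factors, EOMES and MIXL1 were far lower at day 7 than at day 3 in both genotypes and counted as expressed at both days. EOMES stood at 188 and 182 FPKM in wild type and 52.3 and 48.9 FPKM under the label at day 3, and at 2.31 and 2.27 against 0.472 and 0.856 FPKM at day 7 (difference of effects 0.85, SE 0.19, adjusted p = 0.0169). It did not pass at a pseudocount of 0.1 (0.17) or when any of 5 of the 8 libraries was left out. MIXL1 stood at 385 and 384 against 106 and 90.2 FPKM and then 6.48 and 8.04 against 1.36 and 1.16 FPKM, with a difference of 0.10 that did not pass (adjusted p = 0.717).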

How the data were processed

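RNA of 12 samples of H7-derived cells was sequenced, and per-library tables of gene symbols and values were deposited. The unit was read from the values as FPKM computed by the authors, since no header names it; per the submitters' processing notes, BWA and the build hg38 (GRCh38) were used, and the counting tool, its strand setting and filters are not given in those sources. All 17096 symbols were above 0 in every library; 22 were date-like and 9 were listed more than once.

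Genes at 1 FPKM or more in at least 2 of 12 libraries (16295) were fitted on log2(FPKM + 1), a scale that understates the change of low genes, with limma 3.58.1 in R 4.3.3 (lmFit and eBayes with trend, 4 group means of 2 libraries, no covariate, two-sided). P-values were adjusted by Benjamini-Hochberg over all genes tested, at a threshold of 0.05. The procedure was tested on simulated data. Gene places come from GENCODE 29 (GRCh38) and promoters from RefSeq (GRCh38.p14).

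Members and lists were chosen with earlier results of these data known. Genes were named by rule: a panel of 23 genes (22 tested), and up to 4 called members per list with the smallest adjusted p. Also named were the 8 largest rises and 8 largest falls per level group, and 6 genes per direction with opposite called effects. These last sets had to reach 5 FPKM and have 1 sign in all 16 choices of 1 library per group. Alternatives were the 12-library fit, 2 rescalings, a pseudocount of 0.1, no filter or one at 5 FPKM, no trend, a replicate block, level bounds of 0.5 and 2 FPKM, and leaving out each library. One result is not reported here.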

Additional observations from a re-analysis of the deposited data

Results flagged for a closer look

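The difference between the 2 genotype effects was itself tested and passed for 3998 genes. Among the genes whose effects were called with opposite signs at the 2 days, 12 were named for the size of the smaller effect. Upward, the differences were 3.96 for EGR1, 3.26 for FOS, 3.23 for GRHL3, 3.16 for CHAC1, 2.76 for GSC and 2.72 for PLEKHA8P1. Downward, they were -3.53 for INSIG2, -3.44 for CDKN1C, -3.44 for ANKRD37, -3.34 for FILIP1, -3.16 for BHLHE40 and -2.98 for APELA. The same sign in each of the 16 choices of 1 library per group was a condition for being named, so it adds no support for these 12. With 2 libraries per group, no library could be tested as standing apart from its group.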

How the results depend on the processing

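The count of changed effects was 3285 in the fit of all 12 libraries, 4107 and 4157 after median-ratio and nuclear-sum rescaling, 3772 at a pseudocount of 0.1, and 3981 and 3776 without the filter and with one at 5 FPKM. Leaving out 1 library at a time gave 2370 to 3734 changed effects, 2430 to 4774 calls at day 3 and 5057 to 7549 at day 7, with the spread pooled so that a lone library was taken to vary like the other groups. The same gave 2166 to 3420 calls for genes expressed at both days, 110 to 153 for genes near 0 at day 3 and 21 to 38 for genes near 0 at day 7. With the filter at 5 FPKM the last 2 groups held 90 and 8 calls. A bound of 0.5 FPKM gave 93 and 15, and one of 2 FPKM gave 284 and 86. At a pseudocount of 0.1 the difference changed sign for ISL1 (0.058), MESP1 (-0.488), MIXL1 (-0.455) and NKX2-5 (0.527), and after nuclear-sum rescaling for TBX5 (0.088). Leaving out 1 library at a time, MIXL1 ran from -0.0341 to 0.239, with -0.0111 without day 3 E2A-/- replicate 2, TCF12 from -0.0239 to 0.739 and TCF4 from -0.0701 to 0.660; none of these had passed the threshold, and the cause was not tested. Of the 171 named genes past the threshold, 13 missed it at a pseudocount of 0.1 and 7 in the fit of 12 libraries, and none changed sign. More of them missed it when wild type replicate 2 of day 3, or either wild type replicate of day 7, was left out. With the replicate number as a block the count was 4111, and GPR157 was the named gene that missed the threshold. The numbers did not pair the samples: deviations of same-numbered libraries correlated at -0.02 to 0.16 between groups. With FPKM only and 2 libraries per group, counting error could not be separated from other spread.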

Other observations

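The day 15 libraries, used above only in the gene filter and the fit of all 12 libraries, gave levels for the same genes. HK2 stood at 14.3 and 14.7 FPKM in wild type and 69.2 and 58.1 FPKM in the libraries labelled E2A-/- at day 15, PFKFB4 at 7.62 and 12 against 74.9 and 70.2 FPKM, and BNIP3 at 45.7 and 53.8 against 124 and 149 FPKM. For these 3 genes the labelled libraries were above wild type, the order of day 3 and not of day 7. MT-CYB stood at 4281 and 5414 against 2019.6 and 1853 FPKM and MT-ND1 at 5141 and 5137 against 2112 and 1823 FPKM, with the labelled libraries below wild type. CDKN1A stood at 2.45 and 3.05 FPKM in wild type, below its wild type level at days 3 and 7, against 0.797 and 0.533 FPKM.

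Several surface and adhesion genes of epithelia, a group not described above, had an effect that fell: 7 of 14 fell and 1 rose (0 to 2 when 1 library was left out). The shares over all genes were 10.6% falls and 13.9% rises. KRT19, a simple epithelial keratin, stood at 416 and 406 FPKM in wild type and 307 and 331 FPKM under the label at day 3, and at 2604 and 2638 against 581 and 581 FPKM at day 7 (difference of effects -1.80, SE 0.10, adjusted p = 0.00011). CLDN6, CLDN3 and CLDN4, tight junction claudins, differed by -1.06, -1.24 and -1.06. VIM, an intermediate filament of mesenchyme, also fell (difference of effects -1.43, SE 0.10, adjusted p = 0.000205). Mesenchymal genes did not share 1 direction: of 11 mesenchymal and cell adhesion genes tested, 3 rose and 2 fell (median -0.03). The mesenchymal cadherin CDH11, described above, rose. BST2, an interferon-inducible tether of viral particles, stood at 28.1 and 29.5 against 105 and 89.6 FPKM at day 3 and had no called effect at day 7 (87.2 and 84.9 against 88.4 and 75.6 FPKM; difference of effects -1.79, SE 0.16, adjusted p = 0.000462).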
